A study of Rattus norvegicus with 6 samples.

Results

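The genes of glycolysis and of the hypoxia-inducible factors (HIF) were followed in dorsal skin wounds of diabetic rats, with and without a microneedle treatment. The 33 members were fixed by symbol, from the glucose carrier Slc2a1 to the histone demethylase Kdm3a, and all 33 were found among the 18825 genes of the deposited table. For description they were divided into 6 genes of glucose entry and the first steps, 8 of lower glycolysis and lactate formation, 3 muscle isoforms (Aldoa, Pfkm and Eno3), 5 lactate carriers and regulators of flux, 5 HIF subunits and prolyl hydroxylases, and 6 HIF targets outside glycolysis. All rats were male Sprague-Dawley animals. They were made diabetic by a diet rich in fat and sucrose and then by streptozotocin, which destroys beta cells, and all carried full-thickness wounds of the back. The control group held 3 untreated wounds. The other group held 3 wounds treated with DST-MNs, microneedles loaded with spheroids of dental pulp stem cells that had been regulated with the polyamine spermidine and with TGF-β3. The labels used here give neither the day of collection nor the species of the stem cells. Needles without cells are no group here, so the parts of the treatment cannot be told apart.

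Glycolysis splits glucose into pyruvate in the cytosol, and lactate dehydrogenase turns pyruvate into lactate when oxygen is short or when growth and inflammation demand fast flux. HIF is a pair of proteins, an oxygen-labile alpha subunit and the stable partner Arnt. With oxygen present, prolyl hydroxylases of the Egln family mark the alpha subunit for destruction. In hypoxia the pair binds DNA and raises transcription of glucose carriers, most glycolytic enzymes and genes of vessels, matrix and mitochondrial turnover. The bed of a wound is poorly perfused, and many of its immune and epithelial cells rely on glycolysis.

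The 6 libraries held 12545206 to 13818548 estimated counts each. Marker genes of tissues beside the dermis differed widely between them. Fibroblast markers (8 genes) were high in all 6, at a summed 26050 to 37230 TPM, a measure scaled by gene length and library. The 20 skeletal muscle markers summed to 13170, 35.2 and 763 TPM in controls 1, 2 and 3 and to 10760 to 14170 TPM in the treated libraries. By this sum control 1 lay among the treated wounds. The 3 most abundant were at 3039, 0.79 and 195 TPM (Mylpf, a myosin light chain), 2475, 0.41 and 68.1 TPM (Acta1, skeletal actin) and 2147, 4.35 and 118 TPM (Myl1, another myosin light chain) in controls 1, 2 and 3, and 5 markers (Ckm, Myh2, Myh4, Myh7 and Mb) had no count in control 2. Markers of keratinocytes, the defining cells of epidermis (12 genes), were low in the controls, where they summed to 218, 29.8 and 200 TPM, against 4744, 270 and 1440 TPM in the treated libraries. Krt16 was at 0 in DST-MNs 2.

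No member passed the test between treated and untreated wounds. Of the 33 genes, 0 were called in either direction by the quasi-likelihood test of edgeR, with p adjusted by Benjamini-Hochberg over 14427 genes and called below 0.05, where 0.776% of all genes were called (0.658% higher and 0.118% lower after treatment). At an unadjusted p below 0.05 the same test had 10 members, 9 lower and 1 higher, against 16.7% of all genes, 6.88% lower and 9.8% higher. The Wald test of DESeq2 called Hif1a, Pgk1 and Ero1a lower and 0 members higher, where it called 6.86% of all genes, 2.51% lower and 4.35% higher. Limma-voom called 0 members, with 0.658% of all genes (0.555% higher, 0.104% lower). With the replicate number as a block edgeR also called 0 members, with 0.853% of all genes (0.714% higher, 0.139% lower). Without control 1 edgeR called 2 members, Pfkm and Eno3, both higher, where the share of all genes called was also larger, at 2.74% (2.14% higher, 0.6% lower).

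The log2 changes (treated minus control) were below 0 in 22 members and above 0 in 11, where 49.5% and 50.5% of all genes were, and their median was -0.20, beside 0.00 over all genes. That median was -0.09 without control 2, -0.13 without DST-MNs 2 and -0.34 without DST-MNs 1. Of the 33, 7 differed at least 1.5-fold and 2, Hif1a and Eno3, at least 2-fold, where 18.9% and 9.55% of all genes did. By CPM, defined below, the groups did not overlap in 13 members, against 22.9% of all genes. In 11 of these every treated library lay below every control (background 10%). In 2, Pfkfb4 and Eno3, every treated library lay above (background 12.9%). By TPM the groups of Hif1a, Hilpda, Pfkfb4 and Eno3 stayed apart, and those of the rest of these 13 overlapped. Those of Aldoa, Egln1 and Kdm3a came apart by TPM, all higher after treatment. The share of all genes apart by TPM was not computed.

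**Figure D1:**
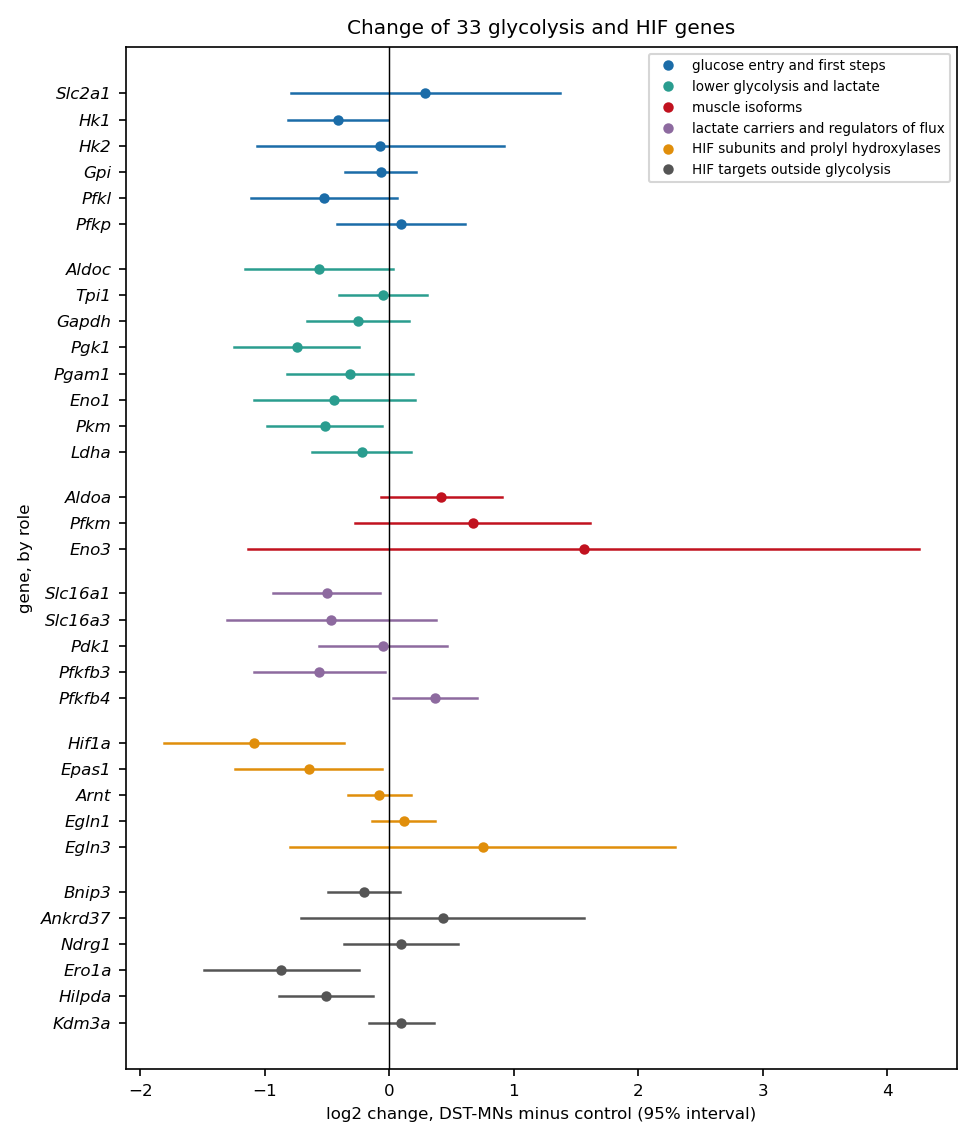
Log2 change of each of the 33 members (DST-MNs minus control, x axis) with its 95% interval from edgeR's quasi-likelihood fit, with genes on the y axis coloured by role. The 8 genes of lower glycolysis all lie left of 0 and the 3 muscle isoforms right of it, with the widest interval at Eno3, from -1.13 to 4.26.

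Hif1a had the most negative log2 change of all members, while Arnt and Egln1 were nearly level between the groups. Hif1a (gene ID 29560), the alpha subunit found in nearly all cells, stood at 382, 575 and 359 CPM (counts per library total, corrected by TMM factors) in controls 1, 2 and 3 and at 205, 278 and 137 CPM in the treated libraries 1, 2 and 3. The groups did not overlap, control 2 was highest and DST-MNs 3 lowest. Its log2 change was -1.09 (SE 0.30, 95% interval -1.81 to -0.36), a level 2.12-fold lower, with an adjusted p of 0.166 in edgeR's quasi-likelihood test and of 0.00587 in the Wald test of DESeq2. Leaving out 1 library at a time gave log2 changes from -1.35 to -0.85.

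Epas1 (29452), which encodes HIF-2 alpha, a form prominent in endothelium, stood at 395, 461 and 373 CPM in controls and 204, 364 and 217 CPM in treated wounds. DST-MNs 2 came close to control 3, and the other treated libraries were well below all controls. The log2 change was -0.65 (SE 0.25, edgeR adjusted p = 0.263). Arnt (25242), the constitutive partner, was at 81.6 ± 3.71 CPM in controls and 77.1 ± 5.96 CPM in treated wounds (mean ± SD, n = 3 each). Its groups overlapped, and the 95% interval of its log2 change ran from -0.33 to 0.17.

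The prolyl hydroxylases differed in how their libraries spread. Egln1 (308913), the main oxygen sensor, was at 54.6 ± 2.69 and 59.3 ± 4.81 CPM (SD, n = 3), with overlapping groups. Egln3 (54702), itself a HIF target, stood at 12.6, 14.9 and 5.99 CPM in controls and 37.8, 11.2 and 7.38 CPM in treated wounds. Only DST-MNs 1 was above the controls, and the log2 change of 0.75 (SE 0.65, edgeR adjusted p = 0.6) became -0.28 without that library. Per length, Egln2 made up most of the family, at 67.9% ± 1.69 of summed Egln TPM in controls and 64.5% ± 8.33 after treatment (SD, n = 3).

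**Figure D2:**
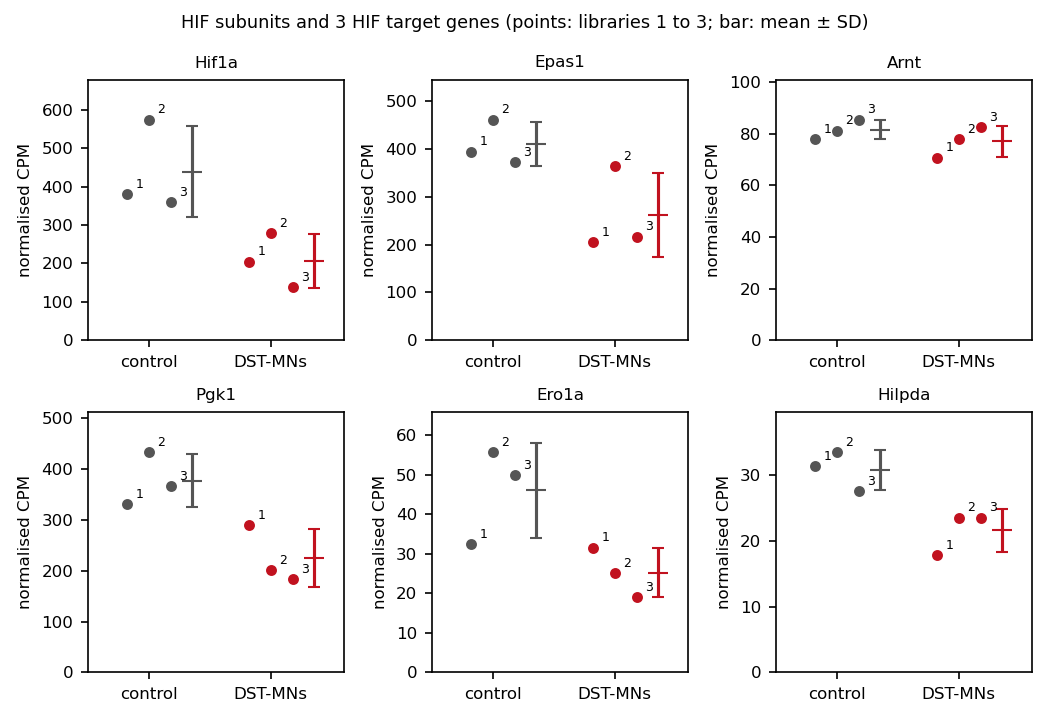
Normalised CPM (y axis) of the HIF subunits Hif1a, Epas1 and Arnt and of the HIF targets Pgk1, Ero1a and Hilpda in each library (points, numbered by replicate), with mean ± SD at the right of each group. Apart from Arnt, each gene has all 3 treated libraries below all 3 controls. The targets shown are among the members whose groups did not overlap, so their part of this pattern follows from the choice. Ndrg1, Kdm3a and Ankrd37, HIF targets with log2 changes above 0 and overlapping groups, are not shown.

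Markers of cells and states that could carry these transcripts also varied. Immediate early genes (11 genes, all detected), which respond fast to stimulation and handling, summed to 1139, 1764 and 954 TPM in controls and 720, 570 and 648 TPM in treated wounds, so their groups did not overlap either. Of the 11, 8 had every treated library below every control (background 10%). In edgeR 9 were lower at an unadjusted p below 0.05 (background 6.88%), with 0 past adjustment. Neutrophil markers (10 genes, with Ngp at 0 in DST-MNs 3) summed to 3196, 4095 and 1506 TPM in controls and 1697, 3946 and 1320 TPM in treated wounds. Monocyte and macrophage markers (10 genes, none at 0) summed to 3889 to 4896 TPM and 3835 to 6530 TPM, with 5 log2 changes below 0 and 5 above. In edgeR 1 neutrophil marker and 1 macrophage marker were called lower (background 0.118%). Of the macrophage markers 3 had every treated library below every control (background 10%). Endothelial markers (8 genes, none at 0) summed to 466 to 580 TPM and 412 to 544 TPM. All 8 endothelial markers had log2 changes below 0 (median -0.34), and 4 had every treated library below every control (background 10%). In edgeR 3 were lower at an unadjusted p below 0.05 (background 6.88%), with 0 past adjustment. The part of these in the Hif1a and Epas1 values was not tested, and in bulk tissue fewer cells of a type and less RNA per cell cannot be told apart.

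Glucose entry and the first steps of glycolysis had no common direction. The 6 log2 changes ran from -0.52 to 0.29, with a median of -0.07. Slc2a1 (24778), the basal glucose carrier GLUT1, stood at 34.0, 47.8 and 28.3 CPM in controls and 77.5, 22.5 and 34.6 CPM in treated wounds. DST-MNs 1 was the highest library and DST-MNs 2 the lowest. The log2 change was 0.29 (SE 0.45, edgeR adjusted p = 0.785) and turned to -0.37 without DST-MNs 1. Hk2 (25059), the inducible hexokinase, stood at 15.7, 20.7 and 12.5 CPM in controls and 23.6, 15.4 and 7.38 CPM in treated wounds. It too was highest in DST-MNs 1, and its log2 change of -0.07 became -0.52 without that library and 0.27 without DST-MNs 3. DST-MNs 1 also had the largest sum of keratinocyte markers, 4744 TPM. At 1440 TPM, DST-MNs 3 came next. That library was the lowest of Hk2 and lay within the range of the controls for Slc2a1 and Egln3. The part of keratinocytes in Slc2a1, Egln3 and Hk2 was not tested.

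**Figure D3:**
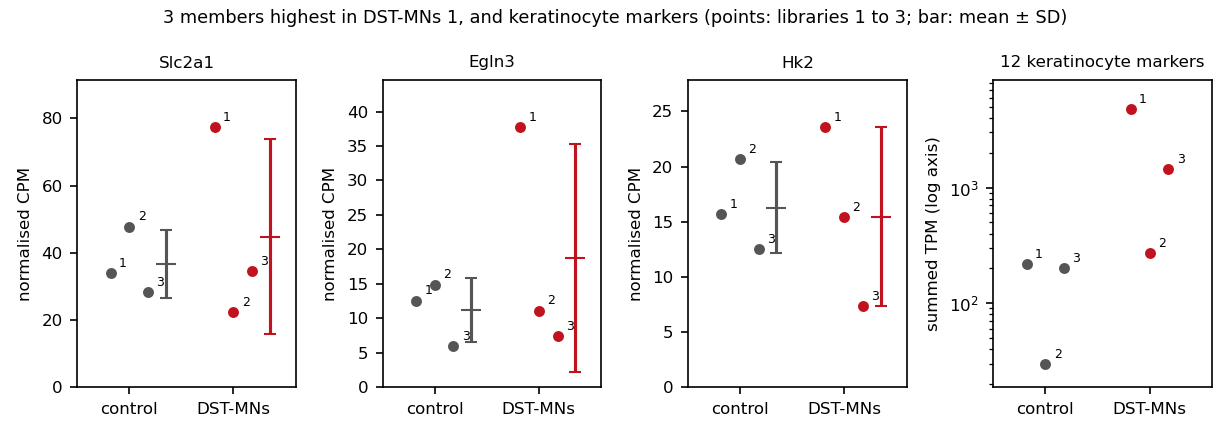
Normalised CPM of Slc2a1, Egln3 and Hk2 and, on a log axis, the summed TPM of 12 keratinocyte markers in each library (points, numbered by replicate; mean ± SD at the right of each group in the CPM panels). DST-MNs 1 is the highest point in all 4 panels, at 77.5, 37.8 and 23.6 CPM and 4744 TPM. The genes were picked from the 6 members highest in that library, so the shared peak follows from the choice.

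Hk1 (25058), the housekeeping hexokinase, stood at 71.5, 99.1 and 110 CPM in controls and 70.0, 70.5 and 70.6 CPM in treated wounds. Control 1 lay just above the treated libraries, which were nearly equal, and the log2 change was -0.41 (SE 0.17, edgeR adjusted p = 0.291). Gpi (292804), glucose-6-phosphate isomerase, was at 275 ± 4.36 and 262 ± 22.7 CPM (SD, n = 3) with overlapping groups. Of the phosphofructokinases, which commit glucose to glycolysis, the liver form Pfkl was at 62.1 ± 17.0 and 43.2 ± 9.75 CPM and the platelet form Pfkp at 37.8 ± 4.04 and 40.3 ± 11.1 CPM. Both had overlapping groups, and the log2 change of Pfkp, 0.09, became -0.12 without DST-MNs 1.

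All 8 genes placed in the lower glycolysis group had negative log2 changes, and none passed the test. Aldoa and Eno3, an aldolase and an enolase of the same steps, were placed with the muscle isoforms. Their log2 changes were positive, at 0.42 and 1.56. The 8 changes ran from -0.74 to -0.05, with a median of -0.38. In 4 of the 8 (Aldoc, Gapdh, Pgk1 and Pkm) the groups did not overlap by CPM, all lower, where 10% of all genes were. By TPM the groups of these 4 overlapped. Pgk1 (24644), phosphoglycerate kinase, the first step that returns ATP, stood at 330, 433 and 366 CPM in controls and 290, 201 and 184 CPM in treated wounds. DST-MNs 1 lay closest to the controls. The log2 change was -0.74 (SE 0.21), a level 1.67-fold lower, with an adjusted p of 0.168 in edgeR and 0.0161 in DESeq2. Pkm (25630), the pyruvate kinase of most tissues, stood at 857, 1087 and 945 CPM in controls and 828, 612 and 577 CPM in treated wounds (log2 change -0.52, SE 0.19, edgeR adjusted p = 0.257). DST-MNs 1 nearly met control 1, and the spliced forms of Pkm were not separated in the table.

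Gapdh (24383), often used as a reference gene, stood at 1432, 1465 and 1367 CPM in controls and 1337, 975 and 1278 CPM in treated wounds. DST-MNs 2 was the lowest library, and the log2 change was -0.25 (SE 0.17, edgeR adjusted p = 0.512). Aldoc, the brain-type aldolase, was rare, at 7.57 ± 0.578 and 5.11 ± 1.15 CPM (SD, n = 3; log2 change -0.57, SE 0.25). Eno1, the general enolase, ranged from 484 to 660 CPM in controls and from 294 to 582 CPM in treated wounds, and Ldha, which makes lactate, from 467 to 609 and from 433 to 539 CPM. Pgam1, the mutase of tissues other than muscle, ranged from 245 to 364 and from 220 to 313 CPM, and Tpi1, triose phosphate isomerase, from 340 to 399 and from 312 to 405 CPM. These last 4 genes had overlapping groups. DST-MNs 1 held the highest treated value of all 8 genes but Tpi1, and the median of the 8 was -0.60 without it and -0.21 without DST-MNs 2. The counts of Tpi1, Gapdh, Pkm, Ldha, Eno1 and Pgk1 were fractional in 1 to 6 libraries, and nothing states how reads of near-identical sequences were assigned, so these 6 are less certain than the other 27 members, whose counts were whole.

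**Figure D4:**
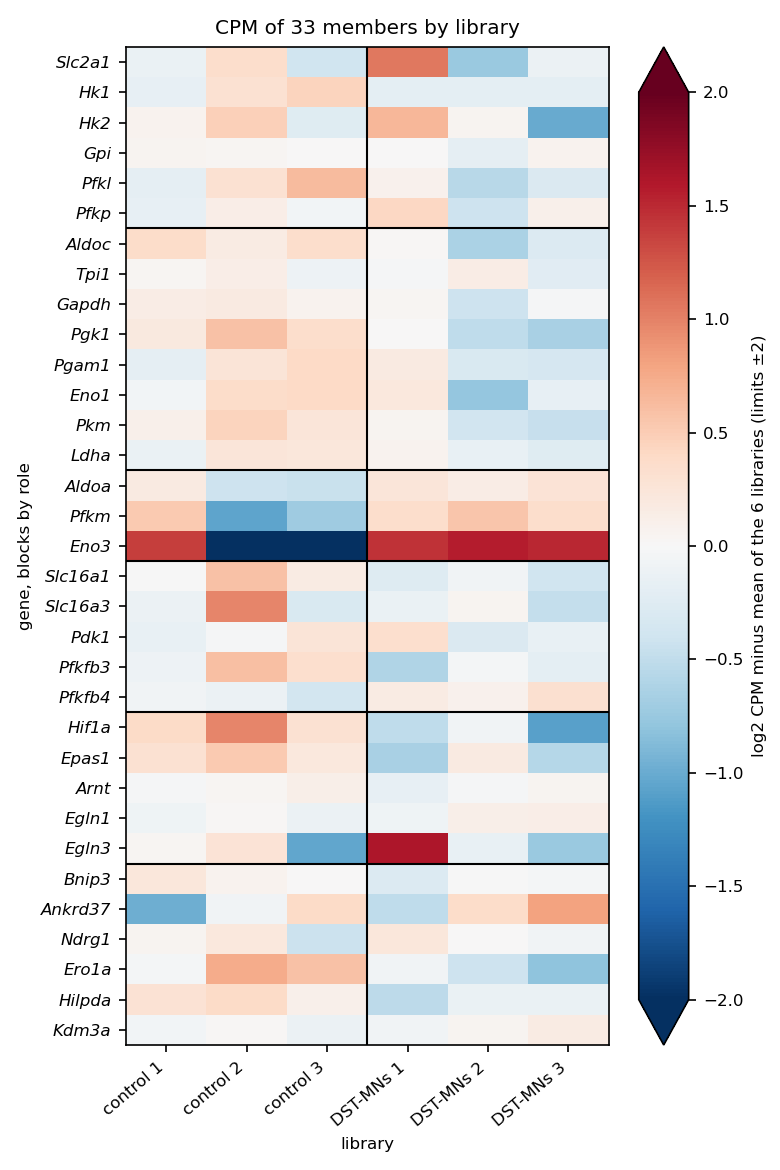
Log2 CPM of each member minus its mean over the 6 libraries (colour, limits of 2 either way), with genes in rows by role and libraries in columns. Control 2 holds the highest value of 11 members and DST-MNs 3 the lowest value of 10, and the Eno3 cells of controls 2 and 3 lie beyond the colour limit.

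The muscle isoforms were higher in the treated libraries and in control 1, the libraries rich in muscle markers. Their median log2 change was 0.67, or 1.30 without control 1 and 0.39 without control 2. Eno3 (25438), the beta enolase of striated muscle, stood at 184, 5.59 and 14.9 CPM in controls 1, 2 and 3 and at 193, 210 and 201 CPM in treated wounds. The treated libraries lay close together with control 1 just below them, and controls 2 and 3 were far lower. The log2 change was 1.56 (SE 1.13, edgeR adjusted p = 0.53) and became 4.29 without control 1, with an adjusted p of 0.0167. Pfkm (65152), the muscle phosphofructokinase, which other tissues also make, stood at 113, 37.9 and 48.1 CPM in controls and 101, 116 and 101 CPM in treated wounds. Control 1 lay among the treated libraries, and the log2 change was 0.67 (SE 0.40, edgeR adjusted p = 0.442), or 1.30 without control 1, with an adjusted p of 0.0265. Aldoa (24189), the muscle aldolase, which most tissues also make and HIF is known to induce, stood at 880, 586 and 572 CPM in controls and 921, 861 and 944 CPM in treated wounds (log2 change 0.42, SE 0.20, edgeR adjusted p = 0.357). Control 2, with a muscle marker sum of 35.2 TPM, still held 586 CPM of Aldoa but only 5.59 CPM of Eno3. The part of muscle tissue in these 3 genes was not tested.

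The share of the muscle form within its enzyme family ordered the libraries in a similar way. Eno3 took 30.8%, 1.05% and 2.62% of summed enolase TPM in controls 1, 2 and 3, and its share was 28.4%, 44.1% and 34.3% in the treated libraries. Pfkm took 57.8%, 25.5% and 28.4% of phosphofructokinase TPM in controls, and 48.0%, 63.6% and 53.9% in treated wounds. Pgam2, the muscle mutase and no member, took 42.2%, 0.565% and 3.76% of mutase TPM in controls, and 39.4%, 55.7% and 57.6% in treated wounds. Control 1 lay among the treated libraries in all 3 families. The exact two-sided permutation p was 0.2 for Eno3, 0.2 for Pgam2 and 0.3 for Pfkm, where 3 libraries against 3 cannot go below 0.1, and Benjamini-Hochberg adjustment over 31 shares gave 0.443, 0.443 and 0.547. Aldoa took nearly all aldolase TPM in every library, 98.8% at the lowest.

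**Figure D5:**
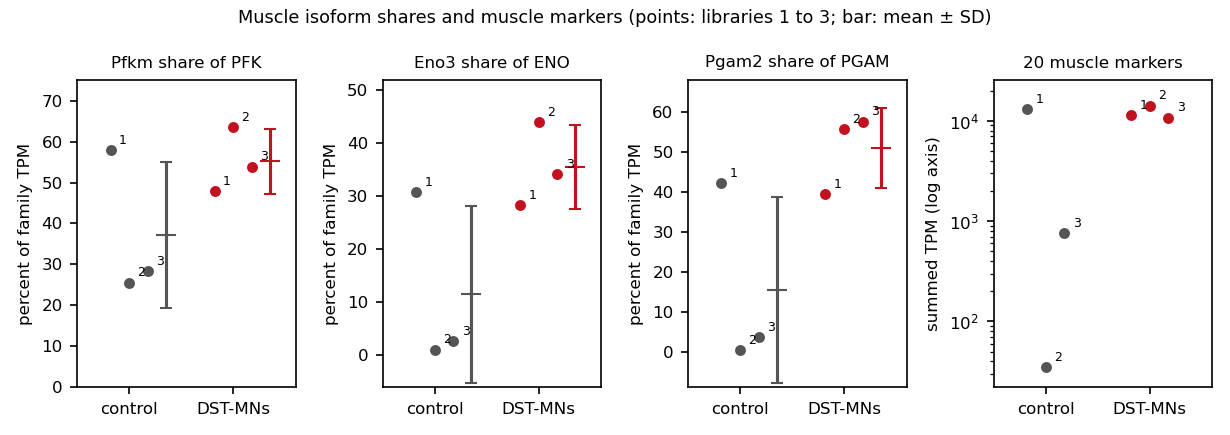
Share of family TPM (percent) taken by Pfkm, Eno3 and Pgam2 in each library (points, numbered by replicate; mean ± SD at the right of each group, where the SD bar can reach below 0) and, on a log axis, the summed TPM of 20 skeletal muscle markers. Control 1, at 13170 TPM of muscle markers, sits with the treated libraries in all 4 panels, and controls 2 and 3, at 35.2 and 763 TPM, sit below.

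Lactate carriers and the regulators of flux had a median log2 change of -0.47, with 4 of the 5 below 0. Without control 2 the median was -0.08, and with a trend test on TPM it was -0.22. Slc16a1 (25027), the lactate carrier MCT1, stood at 82.8, 125 and 93.9 CPM in controls and 70.3, 79.7 and 63.2 CPM in treated wounds. Control 1 and DST-MNs 2 were close, the groups did not overlap, and the log2 change was -0.50 (SE 0.18, edgeR adjusted p = 0.245). Slc16a3, the exporter MCT4 of glycolytic cells, stood at 38.7, 82.8 and 34.2 CPM in controls and 38.7, 43.8 and 30.3 CPM in treated wounds. Control 2 alone stood out, since the log2 change of -0.47 became 0.04 without it.

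The bifunctional enzymes of the Pfkfb family make and break fructose 2,6-bisphosphate, the main activator of phosphofructokinase, and the family's members differed in direction. Pfkfb3 (117276), the strongly activating form induced in inflammation and hypoxia, stood at 85.7, 139 and 115 CPM in controls and 60.8, 89.2 and 80.5 CPM in treated wounds (log2 change -0.56, SE 0.22, edgeR adjusted p = 0.274). DST-MNs 2 lay above control 1, so the groups overlapped. Pfkfb4 (54283) stood at 20.9, 20.3 and 17.1 CPM in controls and 24.7, 23.3 and 27.4 CPM in treated wounds. All treated libraries lay above all controls, with a log2 change of 0.37 (SE 0.14, edgeR adjusted p = 0.264). As a share of the TPM of the 4 Pfkfb genes, Pfkfb3 took 59.2%, 71.5% and 67.6% in controls, and 41.1%, 55.7% and 50.8% in treated wounds. These shares did not overlap (exact two-sided permutation p = 0.1, the smallest that 3 against 3 allow, and 0.443 adjusted over 31 shares). Pdk1, the kinase that keeps pyruvate out of the mitochondrial cycle, was at 17.7 ± 2.62 and 17.1 ± 4.09 CPM (SD, n = 3), and the 95% interval of its log2 change ran from -0.56 to 0.47.

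HIF targets outside glycolysis were split in direction. The 6 log2 changes ran from -0.87 to 0.43, with 3 above 0 and 3 below and a median of -0.05. Ero1a (171562), an oxidase that helps to form disulfide bonds in the endoplasmic reticulum, stood at 32.5, 55.7 and 49.8 CPM in controls and 31.6, 25.0 and 19.1 CPM in treated wounds. Control 1 and DST-MNs 1 almost met, and the log2 change was -0.87 (SE 0.26), a level 1.82-fold lower, with an adjusted p of 0.188 in edgeR and 0.0392 in DESeq2. Hilpda (100361568), a small protein that holds back lipid droplet breakdown, stood at 31.3, 33.5 and 27.5 CPM in controls and 17.8, 23.5 and 23.5 CPM in treated wounds (log2 change -0.51, SE 0.16, edgeR adjusted p = 0.196). All treated libraries lay below all controls. Bnip3, which directs mitochondria to autophagy, stood at 94.8, 84.6 and 81.7 CPM in controls and 67.2, 80.6 and 79.1 CPM in treated wounds. DST-MNs 2 lay just below control 3, and the log2 change was -0.20 (SE 0.12, edgeR adjusted p = 0.446).

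The other HIF targets had overlapping groups. Ndrg1, a stress-responsive differentiation gene, was at 208 ± 46.2 and 222 ± 24.0 CPM, and Kdm3a, which removes methyl groups from histones, at 66.1 ± 3.53 and 70.8 ± 6.04 CPM (SD, n = 3). Ankrd37, an ankyrin repeat protein, was the rarest member by CPM, at 1.24, 2.33 and 3.19 CPM in controls and 1.72, 3.16 and 4.24 CPM in treated wounds. Its 95% interval of the log2 change was wide, from -0.71 to 1.56.

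ACGTG is the usual form of the core of the DNA element that HIF binds. The stretches below show where these letters stand just before the start of members whose groups did and did not overlap. Other forms of the core, such as GCGTG, were neither searched nor marked. RefSeq promoters of the build GRCr8, which is not the build of the counts, were matched for 30 members. Pgk1, Ndrg1 and Ero1a had no entry. The 100 bases before a start held ACGTG on either strand (read as CACGT when on the other) in 7 of the 30 members, or 23.3%, and in 8.6% of the 27457 genes of the table, many of which were not measured here. Over the whole 300 bases it was 60% of the members and 20.9% of those genes. The members were chosen partly as HIF targets, so these shares describe the list and are no result of the counts. CACGTG holds both readings, was counted as 1 place, and is also an E-box bound by other factors. The stretches end at the last base before the start, with ACGTG and CACGT in capitals.
Ldha: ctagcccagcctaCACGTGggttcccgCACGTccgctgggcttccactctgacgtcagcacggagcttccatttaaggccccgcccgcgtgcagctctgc
Bnip3: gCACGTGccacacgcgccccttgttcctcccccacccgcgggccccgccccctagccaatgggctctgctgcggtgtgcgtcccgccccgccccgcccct
Hilpda: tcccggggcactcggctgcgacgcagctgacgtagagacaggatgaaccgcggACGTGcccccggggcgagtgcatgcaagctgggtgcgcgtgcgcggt
Slc2a1: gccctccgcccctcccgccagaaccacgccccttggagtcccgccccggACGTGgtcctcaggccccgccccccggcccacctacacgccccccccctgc
Aldoc: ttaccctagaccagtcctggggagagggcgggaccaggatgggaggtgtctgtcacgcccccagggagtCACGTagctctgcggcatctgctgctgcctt
Ankrd37: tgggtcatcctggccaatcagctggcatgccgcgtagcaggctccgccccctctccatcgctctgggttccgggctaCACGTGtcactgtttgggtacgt
Pfkfb3: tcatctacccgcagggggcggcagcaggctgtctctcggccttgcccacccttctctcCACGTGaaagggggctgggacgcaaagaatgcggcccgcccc
They lie at chr1:106507992-106508091 (plus strand), chr1:203154963-203155062 (minus strand), chr4:58836363-58836462 (plus strand), chr5:138002422-138002521 (plus strand), chr10:63715444-63715543 (plus strand), chr16:53001407-53001506 (plus strand) and chr17:71944833-71944932 (plus strand) of GRCr8. Counted back from base -1, Ldha holds ACGTG on either strand at 2 places, which begin at bases -87 and -73. The other 6 genes hold it at 1 place each, from base -99 in Bnip3 to base -23 in Ankrd37. Of these 7 genes, Hilpda, Bnip3 and Aldoc had groups that did not overlap by CPM. All were lower after treatment, as in 11 of all 33 members and 10% of all genes. Ldha, Slc2a1, Ankrd37 and Pfkfb3 had overlapping groups. By TPM only the groups of Hilpda stayed apart. A match is a description of the letters, not of binding, and the window leaves out sites farther away.

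With all 6 libraries, edgeR's calls within the pathway lay outside the members. Of 43 further HIF targets 42 were tested, 3 fell and 0 rose by edgeR's quasi-likelihood test after Benjamini-Hochberg adjustment, where 0.118% and 0.658% of all genes did. These were Plod2, Adm and Edn1. The list was chosen with earlier results of these data known, so its counts beside the shares of all genes are a description and no test. At an unadjusted p below 0.05 the list had 3 higher and 11 lower, where 9.8% and 6.88% of all genes were, and DESeq2 called 2 higher and 9 lower, where it called 4.35% and 2.51% of all genes. Plod2 (300901), a lysyl hydroxylase of collagen crosslinks, stood at 100, 168 and 125 CPM in controls and 48.2, 45.9 and 41.4 CPM in treated wounds (log2 change -1.54, SE 0.20, edgeR adjusted p = 0.0282). Adm (25026), the vasodilator adrenomedullin, stood at 34.1, 45.9 and 27.5 CPM in controls and 9.22, 12.8 and 10.2 CPM in treated wounds (log2 change -1.74, SE 0.23, edgeR adjusted p = 0.0311). Edn1 (24323), the vasoconstrictor endothelin 1, was at 16.7 ± 2.08 and 5.14 ± 1.47 CPM (SD, n = 3; log2 change -1.70, SE 0.25, edgeR adjusted p = 0.0456). Every treated library of the 3 genes lay below every control. Adm lost its call without control 2 (adjusted p = 0.103) or DST-MNs 1, 2 or 3 (0.117, 0.0707 and 0.141). Plod2 and Edn1 lost theirs without control 2 (0.0579 and 0.198), control 3 (0.0977 and 0.149) or any 1 treated library, while the direction held in all these fits. With the replicate number as a block Adm kept its call, Edn1 and Plod2 lost theirs (0.068 and 0.0549), and Bhlhe41, a circadian repressor, was called higher instead (log2 change 1.27, edgeR adjusted p = 0.0474). Edn1 also lost its call with at least 10 counts in every library (0.0624) and Plod2 with the trend test on TPM (0.0554).

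Next by p in that list was Hmox1, heme oxygenase 1, at 570 ± 146 CPM in controls and 163 ± 63.1 CPM in treated wounds (SD, n = 3; log2 change -1.80, SE 0.35, edgeR adjusted p = 0.0906). The median log2 change of the list was -0.11, with 26 genes below 0 and 16 above. Vegfa, a vessel growth factor and a common readout of HIF, stood at 84.9, 147 and 51.8 CPM in controls and 58.3, 66.3 and 161 CPM in treated wounds. DST-MNs 3 was its highest library and the lowest of Hif1a, and its log2 change was 0.01 (SE 0.50).

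Of 14 further HIF regulators 13 were tested and 0 passed edgeR's test, with 0 higher and 2 lower at an unadjusted p below 0.05 and 1 called lower by DESeq2, beside the shares of all genes given for the HIF targets. The smallest p was that of Eloc, elongin C of the ubiquitin ligase that removes HIF alpha, at 89.5 ± 7.07 and 67.3 ± 3.65 CPM (SD, n = 3; log2 change -0.41, SE 0.11, edgeR adjusted p = 0.156). Os9, Elob (elongin B) and Cited2, a competitor of HIF for its coactivator, came next, with log2 changes of -0.28, -0.30 and -0.27 (edgeR adjusted p = 0.272, 0.371 and 0.392).

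Of 38 other genes of glycolysis, pyruvate use and glycogen 33 were tested and 0 passed edgeR's test, with 4 higher and 3 lower at an unadjusted p below 0.05 and 2 each way by DESeq2, beside those same shares of all genes. Their median log2 change was 0.13. Slc2a3 (25551), the high-affinity glucose carrier GLUT3 of leukocytes and neurons, stood at 100, 150 and 143 CPM in controls and 42.5, 86.9 and 65.7 CPM in treated wounds. The groups did not overlap (log2 change -1.01, SE 0.28, edgeR adjusted p = 0.168). As a share of the TPM of Slc2a1, Slc2a3 and the insulin-responsive carrier Slc2a4, Slc2a3 took 50.7%, 64.7% and 70.9% in controls, and 21.9%, 54.1% and 41.1% in treated wounds. DST-MNs 2 lay above control 1 (exact two-sided permutation p = 0.2, adjusted 0.443).

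Ugp2, which makes the sugar donor of glycogen, was at 149 ± 7.17 and 95.1 ± 12.9 CPM (SD, n = 3; log2 change -0.65, SE 0.13, edgeR adjusted p = 0.102). Fbp2, the muscle fructose bisphosphatase, stood at 0.541, 0 and 0.156 CPM in controls and 2.96, 3.16 and 4.32 CPM in treated wounds (edgeR adjusted p = 0.105). Control 1 was its highest control. Gpd1, which links glycolysis to glycerol lipids, stood at 17.2, 4.74 and 10.6 CPM in controls and 73.5, 34.1 and 24.0 CPM in treated wounds (log2 change 2.02, SE 0.57, edgeR adjusted p = 0.168). Sebaceous markers (11 genes, with Awat1, Awat2 and Elovl3 at 0 in control 2) summed to 372 to 453 TPM in controls and 904 to 1006 TPM in treated wounds. Their median log2 change was 3.28, with 10 above 0, and edgeR called 4 higher (background 0.658%). Adipocyte markers (8 genes, none at 0) summed to 1997 to 2537 and 2575 to 2842 TPM, with a median log2 change of 1.01 and 0 called. Neither pair of sums overlapped. Most of the adipocyte sum was Fabp4, at 1878 to 2449 TPM in controls and 2053 to 2674 TPM in treated wounds, which overlapped. By CPM 1 of the 7 adipocyte markers tested had every treated library above every control, and 8 of the 11 sebaceous markers did (background 12.9%). The part of either tissue in Gpd1 was not tested.

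Levels differed far more between members than between groups. Per length, as mean TPM over the 6 libraries, Gapdh led at 1709, followed by Aldoa at 939, Ldha at 514, Pkm at 507, Eno1 at 467 and Tpi1 at 410. Ldha and Pkm did not differ beyond their spread, and Pkm was the higher one in the control means. Of the first steps, Gpi stood at 202, Hk1 at 31.6, Pfkl at 27.7 and Slc2a1 at 23.6 TPM. Hif1a stood at 156 ± 41.0 TPM in controls and 82.5 ± 30.8 TPM in treated wounds (SD, n = 3), and Epas1 at 115 ± 11.8 and 81.3 ± 28.3 TPM. Hif1a was above Epas1 in all controls and in DST-MNs 1, and below it in DST-MNs 2 and 3. Arnt stood at 25.0 TPM over all libraries. The lowest members were Hk2 at 6.23, Aldoc at 6.33, Ankrd37 at 7.90 and Egln3 at 7.94 TPM. Summed over the 30 members without the muscle isoforms, the level was 4833, 5787 and 5540 TPM in controls and 5781, 4428 and 4302 TPM in treated wounds. DST-MNs 1 lay among the controls, and DST-MNs 2 and 3 lay below all of them.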

How the data were processed

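Messenger RNA of 6 wounds was extracted with TRIzol and sequenced as read pairs (DNBSEQ-T7), per the labels' protocols. Groups and replicate numbers came from sample titles, and columns of the table were matched by library name. The replicates are called biological in the labels, with no animal named, so p-values measure the spread between these samples. The authors deposited estimated counts per gene, 90.6% to 91.4% of them whole in a library, and FPKM, TPM and normalised counts (a signal, the counts divided by 1 factor per library), per the file headers. The build was mRatBN7.2, per the submitters' processing notes. The counting method was not given in the sources used here.

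Counts were rounded and filtered with filterByExpr of edgeR 4.0.16 (minimum count 10, 14427 genes left). TMM factors scaled them, and edgeR's quasi-likelihood test (R 4.3.3) gave p, adjusted by Benjamini-Hochberg and called below 0.05. The coefficient of biological variation was 30.2%. Standard errors are the log2 change over the square root of F, and 95% intervals use the t distribution of that test. In counts simulated for DST-MNs against control, with 14270 genes, 19 of 100 genes with a 2-fold change and 75 of 100 with a 4-fold change were found, with 5 false calls. TPM served for levels between genes and for isoform shares, tested with exact permutation tests (scipy 1.17.1). FPKM served only as an alternative for those shares, and the authors' normalised signal was not tested.

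All 246 entries of 21 lists matched, 242 by symbol and 4 through the RefSeq table. The members and lists were chosen with earlier results of these data known. Named are all 33 members, from each list of other pathway genes those past the threshold and the 4 with the smallest p, and the 3 muscle markers with the highest mean TPM. Vegfa, Egln2, Pgam2, Bhlhe41, Fabp4 and the Slc2a3 share were named after their values were seen. Alternatives were other scalings (DESeq2 size factors, upper quartile, total counts), other count filters, DESeq2 1.42.0, voom, a trend fit of limma 3.58.1 on log2(TPM + 1), keeping genes whose mean TPM was 1 or more, the replicate number as a block, and each library left out.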

Additional observations from a re-analysis of the deposited data

How the results depend on the processing

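Rare members such as Ankrd37 rest on few counts, and the effect of depth was not tested. With 3 libraries a group most 2-fold changes go uncalled, so a missing call does not show equal levels. The number of members called stayed at 0 in each direction under every alternative run except the Wald test of DESeq2 (3 lower) and the fit without control replicate 1 (2 higher), so with 1 library left out it ran from 0 to 2 higher. Over all genes 95 rose and 17 fell. These counts were 28 and 10 with at least 10 counts in every library, 678 and 392 with DESeq2, 128 and 8 with the limma trend test on TPM, and from 13 to 314 and from 1 to 88 with 1 library left out, the highest without control replicate 1. The share of calls that were higher was 84.8%, against 63.4% with DESeq2 and 73.7% with at least 10 counts in every library. Total counts and the TPM trend test moved the median log2 change of all genes to 0.12. Whether the groups of a gene overlapped was judged by CPM unless TPM is named, and for many members it differed by TPM.

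With 1 library left out, group medians ran from -0.39 to 0.03 for glucose entry, -0.60 to -0.21 for lower glycolysis, 0.39 to 1.30 for muscle isoforms and -0.63 to -0.08 for lactate carriers and regulators. They ran from -0.28 to -0.05 for HIF subunits and prolyl hydroxylases, -0.16 to -0.02 for HIF targets and -0.34 to -0.09 for all 33. The TPM trend test gave 0.03 for glucose entry, -0.22 for lactate carriers and regulators, 0.06 for HIF subunits and prolyl hydroxylases, 0.08 for HIF targets and -0.05 for all 33. Total counts gave 0.05 for glucose entry, 0.04 for HIF subunits and prolyl hydroxylases and 0.06 for HIF targets. Of 495 log2 changes of members under alternatives, 23 changed sign, in 10 members. With total counts these were Hk2 (0.06), Gpi (0.05), Tpi1 (0.07), Pdk1 (0.08), Arnt (0.04), and with the TPM trend test Gpi (0.08), Tpi1 (0.10), Pdk1 (0.03), Arnt (0.06). All 9 values lie below the all-gene median of 0.12 under those settings, so these signs follow the shift of all genes. With 1 library left out, ranges that crossed 0 were -0.37 to 0.63 for Slc2a1, -0.52 to 0.27 for Hk2, -0.12 to 0.01 for Gpi, -0.12 to 0.30 for Pfkp, -0.13 to 0.04 for Tpi1, -0.70 to 0.04 for Slc16a3, -0.26 to 0.09 for Pdk1, -0.28 to 1.14 for Egln3, -0.08 to 0.23 for Ndrg1.

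Isoform share differences (treated minus control, percentage points) were 17.9 for Pfkm, 24.1 for Eno3, 35.4 for Pgam2, 0.517 for Aldoa, and kept their sign with counts, FPKM or any 1 library left out. Same-numbered libraries of the groups had deviations correlated at only -0.02, 0.10 and 0.11, and control 1 was closest to DST-MNs 2, so the numbers were not taken as pairs. With the replicate block 123 genes were called in place of 112, 103 higher and 20 lower, and 0 members in each direction.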
